A study of Gallus gallus with 18 samples.

Results

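The genes described here are the 100 that stood highest in the uterus of hens laying weak-shelled eggs at the start of shell calcification. They were chosen from 17057 eligible rows of a table of 20866 rows, of which 17108 carry Ensembl identifiers. The choice used CPM (a row's counts divided by the total of its library and multiplied by 1000000): each group's mean over 3 libraries was taken, rows with an Ensembl identifier and a median under 1000 CPM over the 18 libraries were eligible, and the score was the log2 of the low strength initiation mean plus 1 over the highest of the 5 other group means plus 1. The 100 highest scores make up the set, so that its height in low strength initiation is given by the choice. That height is described below, and counts of calls that use the low strength initiation libraries do not test it.

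The hens were Hy-Line Brown, a commercial brown-egg layer, 42 weeks old, and RNA of their uterus was sequenced. The 18 libraries fall into 6 groups of 3, from low and high eggshell strength hens at each of 3 calcification periods: low strength initiation, high strength initiation, low strength growth, high strength growth, low strength termination and high strength termination. All hens are of 1 breed and age and the labels name no treatment. Whether every library came from its own hen is not stated, and the spread that the p-values measure may therefore be technical. The uterus, or shell gland, holds the egg while calcium carbonate is laid down on the shell membranes; calcium and bicarbonate are moved across its epithelium into the fluid around the egg, and gland cells secrete the proteins of the shell matrix. Shell formation begins with the first mineral deposits on the membranes, continues with a period of rapid and linear mineral deposition, and ends with the cuticle. The files give the Ensembl identifiers without gene names and the gene table used here holds none of these identifiers, so the members are named by identifier, no role is given to any of them, and markers of the uterus or of other tissues and cell types were not examined.

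The libraries held between 13322102 and 16125109 counts and had counts for 17663 to 18217 rows each. In the high strength termination group replicate 3 stood apart: its log2 CPM correlated with the 3 low strength termination libraries at a mean Pearson's r of 0.962 and with the 6 growth libraries at 0.790, where replicates 1 and 2 had 0.827 and 0.815 with low strength termination and 0.939 and 0.953 with growth. Call counts, median changes and named changes that rest on this group are also given without that library. The tests share 1 spread over all groups, so it also enters comparisons that do not use its group. For those without low strength initiation, call counts are given without it as well. The low strength initiation libraries had 95.2%, 94.7% and 94.3% of first-mate bases at quality 30 or above, against 90.9% to 94.1% in the 15 other libraries. The part of read quality in the levels below was not tested.

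The 100 members together made up 2.86%, 2.42% and 1.67% of all counts in low strength initiation replicates 1, 2 and 3, against 0.0625% to 0.124% in the 15 other libraries. Their summed level was 23162 ± 6006 CPM in low strength initiation (SD, n = 3) and 1191 ± 68.9 CPM in high strength initiation, a ratio of 19.4. It was 788 ± 19.0 CPM in low strength growth and 861 ± 119 CPM in high strength growth, and 670 ± 56.6 CPM in low strength termination and 711 ± 40.5 CPM in high strength termination, where replicate 3 had 687 CPM beside 758 and 688 CPM in replicates 1 and 2. Outside low strength initiation the sum was thus highest in high strength initiation, whose lowest library had 1113 CPM, against at most 997 CPM in any growth or termination library. Abundant members weigh most in this sum, and the highest member mean in high strength initiation was 235 CPM. By member, high strength initiation was the highest other group for 39 of 100, beside 33% of eligible rows with a count outside low strength initiation. In bulk tissue, fewer cells of a type and less RNA per cell cannot be told apart. A single gene held most of the sum: ENSGALG00000005360 accounted for 53.8%, 53.3% and 53.3% of it in low strength initiation replicates 1, 2 and 3. Without that gene the sum was 10774 ± 2741 CPM in low strength initiation and 1191 ± 69.0 CPM in high strength initiation, a ratio of 9.05.

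**Figure D1:**
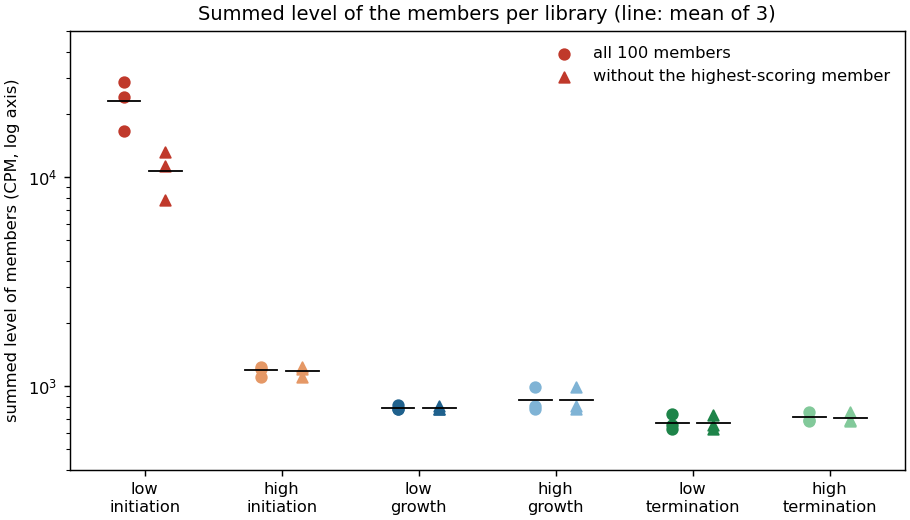
Summed CPM of the members in each library on a log axis, by group, for all 100 members (circles) and without the highest-scoring one (triangles); lines are means of 3 libraries. The 3 low strength initiation libraries lie between 16715 and 28597 CPM, and the 15 others between 625 and 1244 CPM.

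The highest-scoring member, ENSGALG00000005360, had 15376, 12887 and 8903 CPM in low strength initiation replicates 1, 2 and 3, against 0.525, 0.143 and 0.786 CPM in high strength initiation. It was the 3rd, 4th and 9th most abundant row of the table in the low strength initiation libraries. In growth it had 0.310, 0.0651 and 0.814 CPM in low strength and 0.363, 0.656 and 1.87 CPM in high strength hens. At termination it had 28, 6 and 24 counts in low strength and 32, 16 and 20 counts in high strength hens. The 539347 counts of the 3 low strength initiation libraries thus compare with 20 in high strength initiation and between 19 and 68 in each of the other groups, and the mean was 8278 times that of the next group, high strength termination. Reads were present in all 15 of the other libraries, at 1 to 32 counts each.

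ENSGALG00000015261, at rank 2 by score, had 385, 328 and 271 CPM in low strength initiation. In high strength initiation it had 17 counts in replicate 1 and 0 in replicates 2 and 3, a mean of 0.425 ± 0.737 CPM (SD, n = 3). Growth and termination together gave 1 count in 12 libraries. Against low strength termination, where it had no counts, its low strength initiation level was at least 1617-fold higher, taking 3 counts per library as the floor (0.186 to 0.225 CPM; this covers counting error only). The second most abundant member in low strength initiation was ENSGALG00000014190, which kept a clear level in every group: 2898, 2455 and 1470 CPM in low strength initiation, against 82.6, 77.6 and 84.3 CPM in high strength initiation. Its other group means were between 36.5 CPM in high strength growth and 50.9 CPM in high strength termination.

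**Figure D2:**
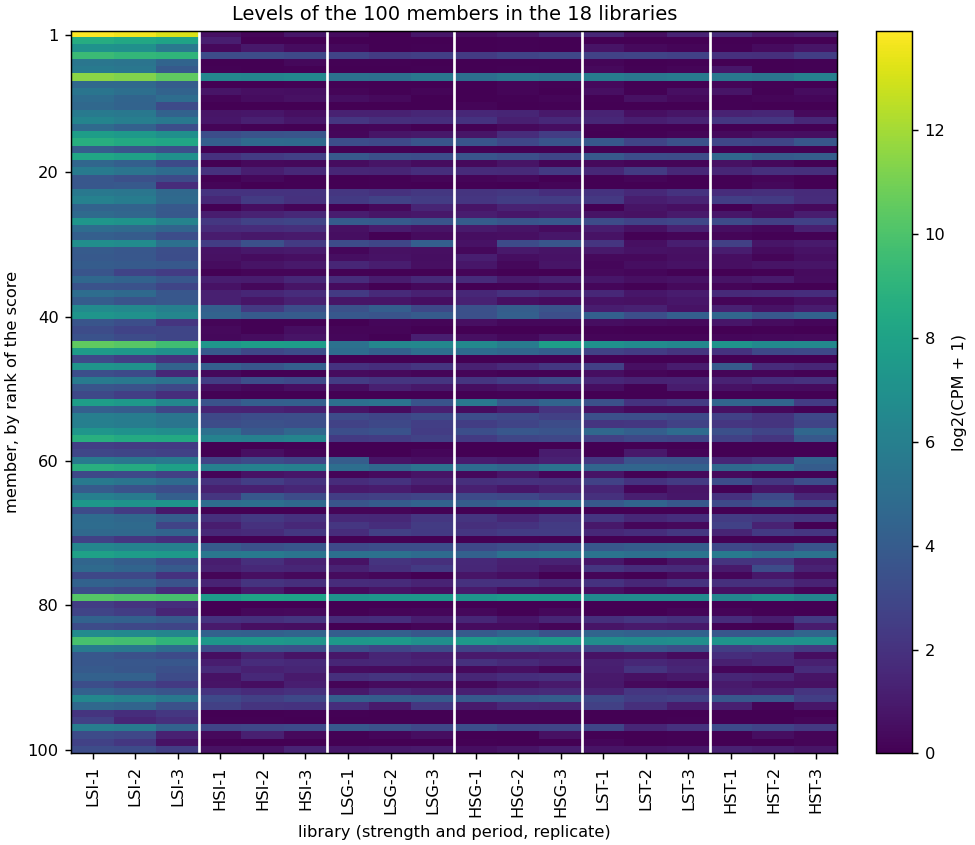
Levels of the 100 members as log2(CPM + 1), with members in rows by rank of the score and the 18 libraries in columns by group (LS, low strength; HS, high strength; I, initiation; G, growth; T, termination). The low strength initiation columns are brighter than all others in every row, and some rows keep an intermediate level in all 18 libraries.

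Each of the 100 members had all 3 low strength initiation libraries above all 15 others. Among eligible rows, 6.70% had that order, and since the choice rests on these values the count is a description. For 8 members the lowest low strength initiation library was less than 2 times the highest other library. Scores ran from 1.97 to 12.28 with a median of 2.52. The member at rank 100 had 7.11 CPM in low strength initiation against a highest other mean of 1.07 CPM, and the first row outside had 461 CPM against 118 CPM with a score of 1.96, so the limit cuts through a continuous range. The 1 CPM added to each mean lowers the ratio most in rows that are near 0 elsewhere. The median score was 2.64 in members whose highest other mean was under 1 CPM and 2.50 in those at 10 CPM or more.

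**Figure D3:**
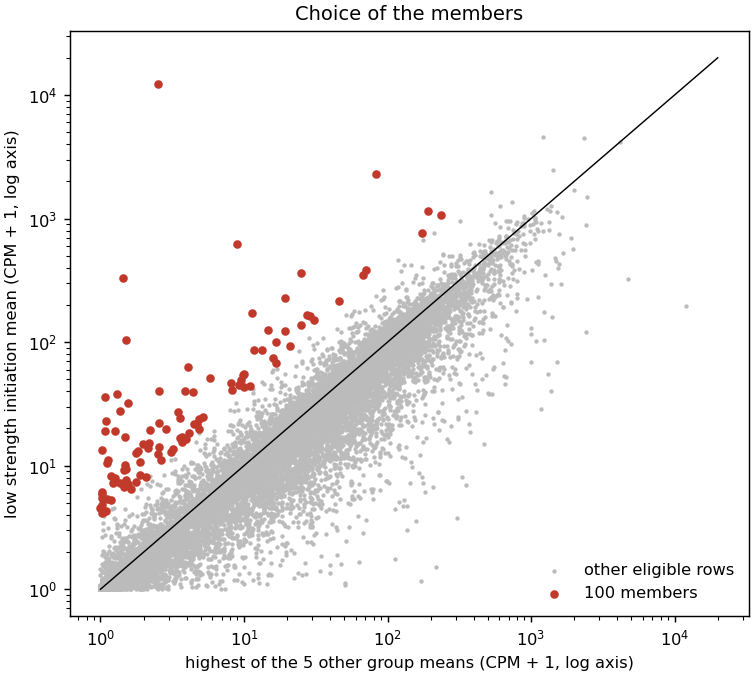
Mean CPM plus 1 in low strength initiation (vertical, log axis) against the highest of the 5 other group means plus 1 (horizontal, log axis) for 17057 eligible rows; red points are the 100 members and the line marks equality. Members range from a highest other mean of 0 to 235 CPM.

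The members divide by how much of them was seen elsewhere. For 40 members no other group mean reached 1 CPM, and these had a median of 7.78 CPM in low strength initiation. For 37 the highest other mean lay between 1 and 10 CPM, with a median of 21.0 CPM in low strength initiation. For 23 it was 10 CPM or more, with a median of 161 CPM in low strength initiation; the median ratio of low strength initiation to the highest other mean was 5.81 in these 23, 6.26 in the 37 and 40.1 in those under 1 CPM that had any count elsewhere. In low strength initiation itself 26 members were under 10 CPM, 54 between 10 and 100 CPM, 16 between 100 and 1000 CPM, and 4 above 1000 CPM.

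At the low end, 13 members had at most 3 counts in every one of the 15 other libraries. One of these, ENSGALG00000028402, which was named after its values were seen, had 70, 45 and 38 counts in low strength initiation and 0 in all 15 others, at least 16.1-fold above the floor of 3 counts per library in high strength initiation. At the other end, 65 members had counts in all 15 other libraries. The members with the highest levels outside low strength initiation were ENSGALG00000010224 and ENSGALG00000002389. ENSGALG00000010224 had 1219, 1052 and 930 CPM in low strength initiation, against 192, 263 and 250 CPM in high strength initiation. ENSGALG00000002389 had 921, 815 and 543 CPM in low strength initiation, against 165, 172 and 152 CPM in high strength initiation. In both genes the low strength initiation mean was under 5 times that of high strength initiation, at 4.54 and 4.66 times.

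Within low strength initiation the members were not level between libraries. Replicate 1 was the highest of the 3 for 93 members and replicate 3 the lowest for 92. Among the 10749 other eligible rows that were at least as abundant there as the lowest member, replicate 1 was highest in 52% and replicate 3 lowest in 67%. The ratio of replicate 3 to replicate 1 had a median of 0.554 over members, with quartiles of 0.408 and 0.680, against a median of 0.80 in those other rows. Replicate 2 stood closer, at a median of 0.852 of replicate 1 in members and 0.972 in other rows. These ratios, and the coefficients of variation below, used column totals. The scaling factors of the tests (TMM) were 1.23, 1.19 and 1.02 for replicates 1, 2 and 3. The ratios were not rescaled by them. Division by these factors would raise each ratio to replicate 1, equally in members and other rows. The shares with replicate 1 highest or replicate 3 lowest could change as well. The gaps left after that were not computed. The choice by the group mean leans on the libraries where a gene is high, and its part in this spread was not tested.

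The size of the gap to replicate 3 differed between members. It was under 0.4 of replicate 1 for 24 members and at least 0.8 for 9. The largest coefficient of variation over the 3 libraries was 80.1%, in ENSGALG00000027516, at 7.94, 4.41 and 0.879 CPM. The smallest was 1.25%, in ENSGALG00000019451, at 12.5, 12.8 and 12.7 CPM, and the median over members was 28.8%. Across the 100 members, log2(CPM + 1) of replicates 1 and 2 correlated at Pearson's r = 0.997, and replicate 3 correlated with them at 0.972 and 0.970; genes are not independent replicates, and the range of levels among members sets much of these values.

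**Figure D4:**
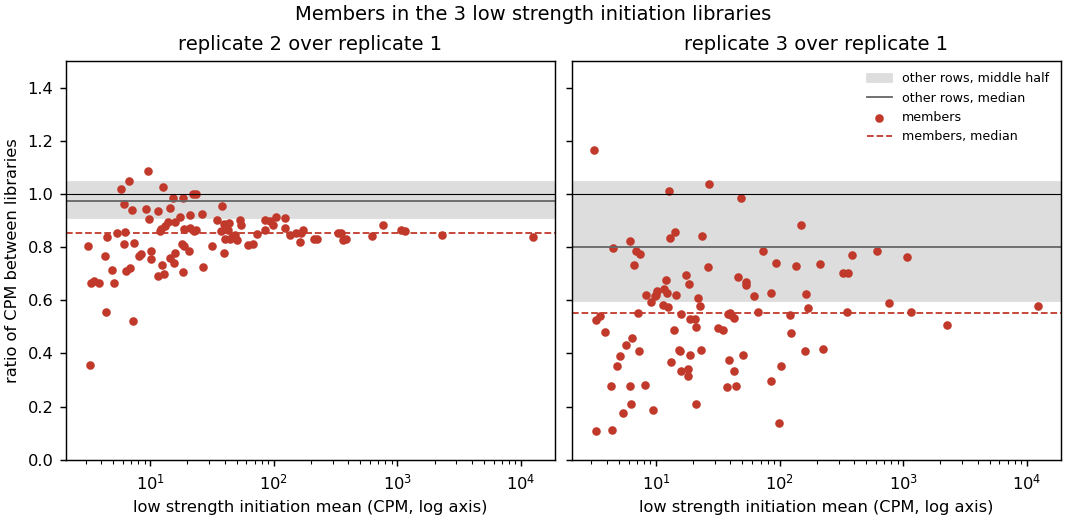
Ratio of CPM of replicate 2 (left) and replicate 3 (right) to replicate 1 of low strength initiation, for each member, against its mean there in CPM (log axis). The dashed red line is the members' median (0.852 and 0.554), the grey line and band the median and interquartile range of 10749 other rows (medians 0.972 and 0.80).

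To see the same measure in libraries that did not choose the genes, the choice was repeated without 1 replicate number in all groups and the left-out libraries were read. Of the 100 genes chosen without replicate 1, all 100 had the left-out low strength initiation library above the 5 other left-out libraries, against 27.1% of eligible rows. Without replicate 2 it was 100 of 100, against 23.5%, and without replicate 3 it was 99 of 100, against 17.6%. The log2 score in the left-out libraries had a median of 2.72 for replicate 1, 2.54 for replicate 2 and 1.95 for replicate 3. This score was at least 1 for 100, 100 and 85 of the 100 genes, against 2.72%, 2.14% and 1.04% of eligible rows. These 3 sets shared 94, 96 and 91 genes with the 100 members. The genes were chosen as high in the other low strength initiation libraries, so these counts describe agreement between replicates and are not a test. The eligible rows were not matched to them. Libraries of 1 group may share hens, handling or sequencing, which the labels do not give.

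The same score was computed for each of the other groups, where it is limited by the most similar group. Low and high strength growth differed in 0.00621% of tested rows (edgeR adjusted p below 0.05). High strength termination replicate 3 lay near low strength termination, and the scores by group were not computed without it. The 100th highest score was 1.97 for low strength initiation, against 0.967 for high strength initiation, 0.425 for low strength growth, 0.388 for high strength growth, 0.589 for low strength termination and 0.882 for high strength termination, all with 3 libraries per group. A score of at least 2 was reached by 96 rows for low strength initiation, against 10 for high strength initiation, 8 for high strength termination and at most 2 for each of the other 3 groups. Among 3752 eligible rows that carry an authors' locus number in place of an Ensembl identifier, 39 scored at or above the 100th member for low strength initiation. All 39 had the 3 low strength initiation libraries above all 15 others, and replicate 1 was the highest of these in 35, with a median ratio of replicate 3 to replicate 1 of 0.552. The same score picked these 39 rows, so the counts are a description and do not test their height. Of eligible Ensembl rows 6.70% had that order of libraries. Replicate 1 was highest in 52% of other Ensembl rows at least as abundant as the lowest member. Shares over the 3752 rows were not computed.

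The members' behaviour in the 15 other libraries was tested, although those libraries enter the choice through the highest of the 5 other means. That term keeps members low there, at a median of 1.10 CPM over the 15 libraries against 11.4 CPM for eligible rows, and low counts limit what a test can find. The choice also favours a fall from the group that gave the highest other mean. Rows above 1 CPM in at least 3 of 18 libraries, 16110 in all, were tested with edgeR's quasi-likelihood test, and p-values were adjusted by Benjamini-Hochberg over all of them, with a threshold of 0.05. Of the 100 members, 98 were among these rows, but 39 of the 98 passed the 1 CPM limit through the low strength initiation libraries that chose them, and 59 passed it on the 15 other libraries. Each count over the 98 is therefore a description, set beside the count in a fit to the 15 other libraries alone, which tested the 59 in 15826 rows. Of the 15 genes named below for a change, 5 had passed through low strength initiation and are given by their counts without a p-value.

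High strength initiation was the highest of the 5 other groups for 39 members, beside 33% of eligible rows with a count outside low strength initiation. Low strength growth was the highest for 19 (19.9% of those rows), high strength growth for 16 (23.1%), low strength termination for 11 (12.3%) and high strength termination for 14 (11.7%). In high strength hens, 5 of 98 members were higher in growth than at initiation, and 12 were lower (edgeR adjusted p below 0.05), beside 18.6% higher and 15.9% lower of all rows tested. The 17 members called are 17.3%, against 34.4% of all rows. In the fit to 15 libraries 13 of 59 members were called (5 higher and 8 lower), or 22%, against 30.5% of all rows. Of the 12 that fell, 11 were members for which high strength initiation had been the highest other group, a choice that favours that direction.

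The median log2 change over the 98 members was −0.21, against −0.02 over all rows. It was −0.09, against −0.01, without high strength initiation replicate 3. In the fit to 15 libraries, over 59 members, it was −0.30, against −0.02. The number called was 11 without high strength initiation replicate 1 (11.2%, against 17.1% of all rows in that fit), 10 without its replicate 3 (10.2%, against 18.5%), and 9 without high strength growth replicate 1 (9.18%, against 19.4%). It was 24 without high strength termination replicate 3 (24.5%, against 51.2%), a library that enters this test through the shared spread.

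The largest rise past the threshold was in ENSGALG00000007911, with 15.3, 11.1 and 13.1 CPM in high strength growth, against 3.75, 5.66 and 6.43 CPM in high strength initiation (log2 change 1.37 with a standard error, SE, of 0.26, adjusted p = 0.00246 by edgeR). The groups did not overlap, and low strength growth had 15.4, 14.1 and 11.3 CPM. ENSGALG00000001188 had 28.5, 23.5 and 16.7 CPM in high strength growth, against 13.7, 6.88 and 8.78 CPM in high strength initiation (log2 change 1.25 with an SE of 0.37, adjusted p = 0.0199 by edgeR). Both genes were still far higher in low strength initiation, at 73.8 to 155 CPM and 124 to 199 CPM. In the fit to 15 libraries their adjusted p-values by edgeR were 0.00477 and 0.0353. The largest fitted falls were in genes that had passed the limit through low strength initiation. ENSGALG00000020193 had 0 counts in the 3 high strength growth libraries, against 4, 1 and 6 counts in high strength initiation. ENSGALG00000007998, at rank 3 by score, had 0, 1 and 0 counts in high strength growth, against 4, 12 and 5 in high strength initiation.

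In high strength hens at termination, 5 of 98 members were higher than at initiation and 14 lower (edgeR adjusted p below 0.05), beside 13.8% higher and 8.45% lower of all rows. The 19 members called are 19.4%, against 22.3% of all rows. In the fit to 15 libraries 13 of 59 were called (3 higher and 10 lower), or 22%, against 19% of all rows. The shares of members and of all rows were near each other in both fits, and their order differed. The fits differ in libraries, rows and members tested, and the part of each was not tested. With upper-quartile scaling 3 were higher and 16 lower, or 19.4%, against 21.4% of all rows. Of the 14 that were lower, 13 were members with high strength initiation as highest other group, a choice that favours that direction.

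Without high strength termination replicate 3 the count was 29 (8 higher and 21 lower), or 29.6%, in a fit that called 51.9% of all rows. The median log2 change was −0.15, against 0.06 over all rows, and −0.55, against −0.04, without that library. In the fit to 15 libraries, over 59 members, it was −0.14, against 0.07. The number called was 11 without replicate 2 of the termination group (11.2%, against 13.4% of all rows). It was 12 without high strength initiation replicate 1 (12.2%, against 12.9%) and also without its replicate 3 (12.2%, against 12.4%), with medians of −0.04, against 0.10, and −0.07, against 0.07.

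ENSGALG00000009382 fell, with 0.272, 0.502 and 0.457 CPM in high strength termination, against 8.63, 10.7 and 11.7 CPM in high strength initiation (log2 change −4.40 with an SE of 0.58, adjusted p = 0.000141 by edgeR). All 3 termination libraries lay below 1 CPM and all 3 initiation libraries above 8 CPM, and without termination replicate 3 the log2 change was −4.57. In low strength initiation it had 211, 182 and 120 CPM. High strength initiation was its highest other group, a choice that favours a fall from there. In the other direction, ENSGALG00000008439 had 24.1, 14.3 and 16.3 CPM in high strength termination, against 3.00, 4.30 and 5.21 CPM in high strength initiation (log2 change 2.34 with an SE of 0.32, adjusted p = 0.000193 by edgeR). Without termination replicate 3 its log2 change was 2.32. In the fit to 15 libraries the adjusted p by edgeR was 0.00119 for ENSGALG00000009382 and 0.000429 for ENSGALG00000008439. The other genes with a large fitted change had passed the limit through low strength initiation. ENSGALG00000006368 had 2, 1 and 1 counts in high strength termination, against 14, 12 and 14 counts in high strength initiation. ENSGALG00000007242 had 12, 6 and 3 counts in high strength termination, against 2, 1 and 1 in high strength initiation, and its call was lost in 12 of 19 alternatives.

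Between high strength termination and high strength growth, 2 of 98 members were higher and 7 lower (edgeR adjusted p below 0.05), beside 4.61% higher and 3.05% lower of all rows. The members' share of 9.18% compares with 7.66% of all rows. In the fit to 15 libraries 5 of 59 were called (2 higher and 3 lower), or 8.47%, against 5.74% of all rows. DESeq2 called 6 higher and 10 lower, 16 in all, beside 13.3% of all rows. The count was 8 without high strength termination replicate 3 (8.16%, against 7.43% of all rows) and 2 without high strength growth replicate 3 (2.04%, against 4.65%). The median log2 change was −0.01, against 0.05 over all rows, and −0.17, against −0.01, without high strength termination replicate 3. In the fit to 15 libraries, over 59 members, it was −0.13, against 0.05.

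ENSGALG00000028284 fell to 1.43, 0.627 and 1.11 CPM in high strength termination, against 9.59, 16.5 and 10.8 CPM in high strength growth (log2 change −3.34 with an SE of 0.55, adjusted p = 0.00156 by edgeR). Its log2 change was −3.48 without termination replicate 3. One rise was in ENSGALG00000006728, with 8.85, 3.70 and 9.01 CPM in high strength termination, against 2.62, 2.92 and 2.80 CPM in high strength growth (log2 change 1.58 with an SE of 0.36, adjusted p = 0.0140 by edgeR). It was 1.26 without termination replicate 3. The other was in ENSGALG00000008439, with 24.1, 14.3 and 16.3 CPM in high strength termination, against 11.2, 9.04 and 6.54 CPM in high strength growth (log2 change 1.20 with an SE of 0.31, adjusted p = 0.0254 by edgeR). It was 1.19 without termination replicate 3. In the fit to 15 libraries the adjusted p by edgeR was 0.00533 for ENSGALG00000028284, 0.0310 for ENSGALG00000006728 and 0.0361 for ENSGALG00000008439. ENSGALG00000006368, which had passed the limit through low strength initiation, had 2, 1 and 1 counts in high strength termination, against 6, 7 and 13 counts in high strength growth, and its call was lost in 12 of 22 alternatives.

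In low strength hens, where the initiation libraries were set aside, 14 of 98 members were higher at termination than in growth and 11 lower (edgeR adjusted p below 0.05), beside 27.3% higher and 27.9% lower of all rows. The 25 members called are 25.5%, against 55.1% of all rows. In the fit to 15 libraries 16 of 59 were called (8 higher and 8 lower), or 27.1%, against 52.2% of all rows. The median log2 change was 0.16, against 0.02 over all rows, and 0.02, against 0.02, without low strength termination replicate 3. In the fit to 15 libraries, over 59 members, it was 0.14, against 0.02. The count was 16 without low strength growth replicate 1 (16.3%, against 43.8% of all rows) and also without its replicate 3 (16.3%, against 47.4%). It was 12 without low strength termination replicate 2 (12.2%, against 37% of all rows) and 11 without its replicate 3 (11.2%, against 41%). Without high strength termination replicate 3, which enters through the shared spread, it was 31 (31.6%, against 62.4%).

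ENSGALG00000013604 had 1.23, 3.25 and 1.81 CPM in low strength termination, against 0.372, 0.326 and 0.313 CPM in low strength growth (log2 change 3.09 with an SE of 0.85, adjusted p = 0.00855 by edgeR). The groups did not overlap. ENSGALG00000007047, which had passed the limit with the low strength initiation libraries, had 11, 15 and 13 counts in low strength termination, against 0, 0 and 2 counts in low strength growth. In high strength termination both genes were low in replicates 1 and 2, with at most 3 counts, and in replicate 3 ENSGALG00000013604 had 35 counts and ENSGALG00000007047 had 17. ENSGALG00000028284 again fell, to 1.16, 1.42 and 0.605 CPM in low strength termination, against 9.98, 16.9 and 7.08 CPM in low strength growth (log2 change −2.98 with an SE of 0.54, adjusted p = 0.0017 by edgeR). ENSGALG00000009382 also fell, with 0, 0.0676 and 0.134 CPM in low strength termination, against 0.186, 0.716 and 0.877 CPM in low strength growth (log2 change −2.59 with an SE of 0.92, adjusted p = 0.0275 by edgeR), a call lost in 4 of 23 alternatives. All its low strength termination libraries, and low strength growth replicate 1, were at or under the floor of 3 counts. In the fit to 15 libraries the adjusted p by edgeR was 0.0156 for ENSGALG00000013604, 0.00407 for ENSGALG00000028284 and 0.0342 for ENSGALG00000009382.

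**Figure D5:**
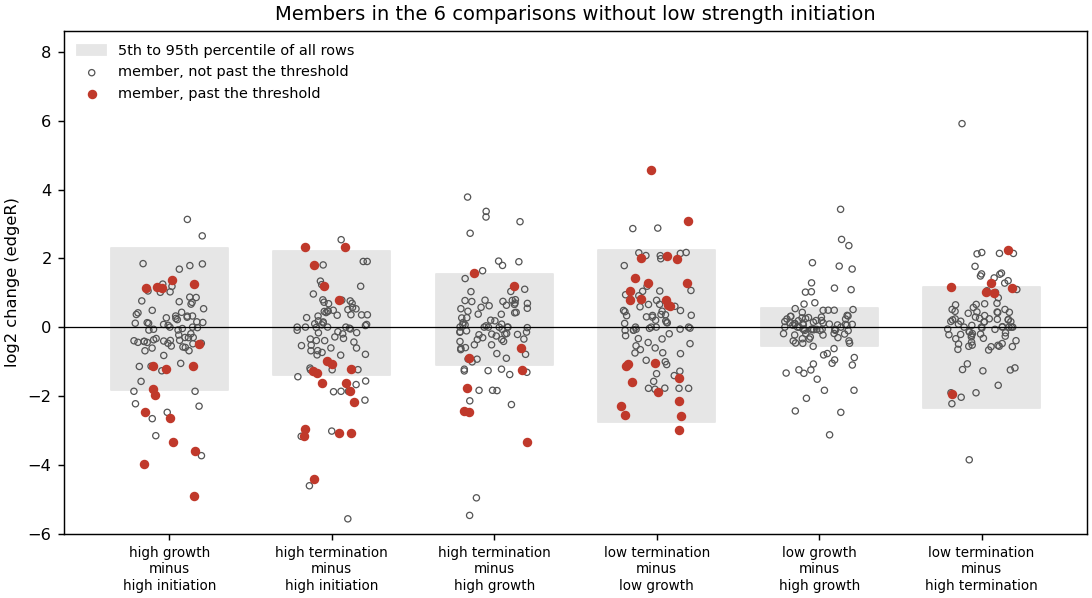
Log2 change of the 98 tested members in 6 comparisons that use none of the low strength initiation libraries, with filled points for members past the threshold (edgeR adjusted p below 0.05) and grey boxes for the 5th to 95th percentile of all 16110 rows; 39 of the 98 passed the limit on low counts through low strength initiation. No member passes between the strength groups in growth, and 25 pass between low strength termination and low strength growth.

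Low and high strength hens were also compared in the later periods. In growth, edgeR called 0 of 98 members between low and high strength hens, beside 0.00621% of all rows, and DESeq2 called 0, beside 0.0683%. Without adjustment, 2 members were below 0.05 by edgeR. The fit to 15 libraries called 0 of 59, beside 0% of all rows. Without high strength termination replicate 3 edgeR called 0 of 98, beside 0.0124% of all rows. The log2 differences of the 98, low minus high strength, had a median of 0 with 46 above and 48 below 0, and a median standard error of 0.56, so that small differences in single members were not detectable at this depth. In the fit to 15 libraries, over 59 members, the median was 0.06, against 0.003 over all rows. At termination 6 members were higher and 1 lower in low strength hens (edgeR adjusted p below 0.05), beside 1.92% higher and 12.2% lower of all rows. The 7 members called are 7.14%, against 14.2% of all rows. In the fit to 15 libraries 3 of 59 were called (3 higher and 0 lower), or 5.08%, against 9.91%. With upper-quartile scaling 6 were higher and 0 lower, or 6.12%, against 10.1% of all rows.

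The calls at termination rested on single libraries, for all rows as for members. Without high strength termination replicate 3 there were 24 members (18 higher and 6 lower), or 24.5%, against 57.4% of all rows. There were 0 without low strength termination replicate 2 or 3 or high strength termination replicate 1, in fits that called 0.0124% of all rows each, and 0 without high strength termination replicate 2, where 0.0932% of all rows were called. There were 4 without low strength initiation replicate 1 or 2, in fits that tested 71 members (5.63%, against 11% and 9.82% of all rows). The count was 4 of 98 (4.08%) without high strength initiation replicate 2 or 3 or high strength growth replicate 2. Of all rows, those fits called 10.7%, 9.11% and 11.2%, in that order.

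ENSGALG00000007152 had 13.8, 21.4 and 13.4 CPM in low strength termination, against 7.49, 11.4 and 6.47 CPM in high strength termination (log2 difference 1.27 with an SE of 0.29, adjusted p = 0.0271 by edgeR). These groups did not overlap, and the log2 difference was 1.19 without high strength termination replicate 3. In the fit to 15 libraries this gene was still called (adjusted p = 0.0388 by edgeR), and its call was lost in 4 of 23 alternatives. ENSGALG00000008961 had 5.11, 2.70 and 1.07 CPM in low strength termination, against 1.29, 0.125 and 0.784 CPM in high strength termination (log2 difference 2.23 with an SE of 0.66, adjusted p = 0.0401 by edgeR), a call lost in 13 of 23 alternatives. Its log2 difference was 2.40 without that library, and the fit to 15 libraries did not call it (adjusted p = 0.0570 by edgeR). The member that was lower in low strength hens, ENSGALG00000005263, had 0.817, 0.135 and 0.672 CPM in low strength termination, against 3.34, 3.33 and 1.04 CPM in high strength termination (log2 difference −1.96 with an SE of 0.63, adjusted p = 0.0497 by edgeR), a call lost in 18 of 23 alternatives. Its log2 difference was −2.27 without that library, and the fit to 15 libraries did not call it either (adjusted p = 0.0692 by edgeR).

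Whether the change between growth and termination differed between the strength groups was tested directly. edgeR called 0 of 98 members, beside 0.0248% of all rows (0.0124% higher and 0.0124% lower), and without adjustment 11 members were below 0.05. DESeq2 called 1, beside 3.46% of all rows, and the fit to 15 libraries called 0 of 59, beside 0%. Without high strength termination replicate 3 the test called 19 members (14 with the larger log2 change in low strength hens and 5 with the smaller), in a fit that called 43.5% of all rows. The comparisons with low strength initiation itself chose the members. The choice made calls likely there for nearly every member, so the counts that follow are a description and do not test the members' height. No conclusion is drawn from the gap between these counts and the shares of all rows. For low minus high strength at initiation the members' median log2 difference was 3.67, and edgeR called 94 of 98 members, beside 7.97% of all rows (4.93% higher and 3.04% lower). In low strength hens, the median log2 change was −4.16 for growth minus initiation, with 97 members called beside 29.4% of all rows (14.8% higher and 14.6% lower). It was −4.24 for termination minus initiation, with 95 called beside 21% of all rows (9.6% higher and 11.4% lower).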

How the data were processed

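Uterine RNA was isolated with Trizol and made into TruSeq libraries, per the labels' protocols. Counts per row were deposited by the authors, with a second table of sequencing quality. Bowtie2, TopHat, TopHat2 and the galGal4 build are named, per the submitters' processing notes. How reads were counted, with or without strand and on which annotation, is not given in the sources used here. Counts of paralogs and of overlapping or antisense genes are therefore uncertain. The deposited counts are in a table named as normalized; 0 values were fractional and 0 libraries lacked a whole number from 0 to 15, and they were treated as raw. A scaling near 1 followed by rounding would not be visible. Read quality is the percent of first-mate bases at quality 30 or above, as deposited by the authors. Pairs of libraries of 1 group differed by more than counting noise (chi-square over its degrees of freedom between 8.60 and 318).

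The members and lists were chosen with earlier results of these data known. CPM used column totals. Rows above 1 CPM in at least 3 libraries were scaled by TMM. Tests used the quasi-likelihood test of edgeR 4.0.16 with Benjamini-Hochberg adjustment, in R 4.3.3 with limma 3.58.1, and a mean for each of 6 groups over 18 libraries, which share 1 spread. P-values are two-sided. Standard errors are the log2 change over the root of F. The difference between strength groups in the change to termination was added after seeing the data. Other steps used Python 3.11.15, pandas 2.3.3 and matplotlib 3.10.9.

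The rule for named genes took the highest scores and levels, the extremes of spread and the largest changes per comparison; without symbols it was shortened to 2 identifiers per direction and comparison. The RefSeq table of assembly GRCg7b has 0 rows with an Ensembl identifier, so the gene lists by symbol were not used and no sequence is shown. Alternatives were DESeq2 1.42.0, no filter on low counts, upper-quartile scaling, the 15 libraries without low strength initiation, the replicate number as a block, each library left out, and other settings of the choice.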

Additional observations from a re-analysis of the deposited data

How the results depend on the processing

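Between high strength termination and high strength growth the reported fit called 9 members (9.18%, against 7.66% of all rows) and DESeq2 16 (16.3%, against 13.3%). The fit to the 15 libraries without low strength initiation tested 59 members and called 5 there (8.47%, against 5.74%). Between low strength termination and growth it called 16 (27.1%, against 52.2%), and the reported fit 25 (25.5%, against 55.1%). Between the strength groups at termination it called 3 (5.08%, against 9.91%), and the reported fit 7 (7.14%, against 14.2%). Fewer members tested is part of the construction of the fit to 15 libraries. For the difference between strength groups in the change to termination DESeq2 called 1 (1.08%, against 3.46%), and the reported fit 0 (0%, against 0.0248%). With each library left out in turn, the members called were 9 to 24 for growth and 11 to 29 for termination against initiation in high strength hens, 2 to 12 for termination against growth in high and 11 to 31 in low strength hens, 0 to 0 between strength groups in growth, 0 to 24 at termination, and 0 to 19 for the difference in change. Of all rows, those fits called 17.1% to 51.2%, 12.4% to 51.9%, 4.41% to 13.6% and 37% to 62.4% in the comparisons between periods. They called 0% to 0.0125% of all rows between strength groups in growth, 0.0124% to 57.4% at termination and 0% to 43.5% for the difference. The median log2 differences that describe the choice ranged over those fits from 3.07 to 3.80 at initiation, from −4.23 to −3.14 for growth and from −4.38 to −3.47 for termination against low strength initiation; the 3 fits without a low strength initiation library tested 71 members, and the others 98. The choice shared 55 members with the reported set when 10 CPM was added in place of 1 CPM, 78 with 0.1 CPM, 93 with TMM-scaled CPM, 94 with medians and 100 without the limit on the median. Leaving out libraries shared 91 to 100, and 82 members were kept by all 21 of these choices; 39 were kept by all 26 alternatives. The causes were not tested.

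The scores of the 23 named members kept their sign in all 598 alternatives, and 44 moved by more than the SD over libraries. The members were chosen for high scores in these same libraries, so the kept sign follows from the choice and is not a test. The 19 changes of named members kept their direction in all 422 alternatives and lost the threshold in 76. They were picked as the largest past the threshold, and the alternatives share most of the libraries, so these counts are a description as well. The replicate number joined libraries only by label: deviations from the group means correlated at −0.37 to 0.55 between same-numbered libraries, and 7 of 18 libraries correlated best with their own number. With the replicate block 17, 20, 9, 24, 0 and 5 members were called in the 6 comparisons in the order of the report. Without it the counts were 17, 19, 9, 25, 0 and 7. The block fit called 36.1%, 20.3%, 6.95%, 55.3%, 0% and 12.6% of all rows. The fit without it called 34.4%, 22.3%, 7.66%, 55.1%, 0.00621% and 14.2%. For the difference in change the block fit called 0 members, beside 0% of all rows. Depth limits members near 0 outside low strength initiation, where between 25 and 36 of 100 had at most 3 counts in a library.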
